A study of Mus musculus with 16 samples.

Results

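The 9 genes described here encode transporters and channels that carry iodide, or that accompany its transport, in thyroid follicular cells: *Slc5a5*, *Slc26a4*, *Slc26a7*, *Ano1*, *Slc5a8*, *Kcnq1*, *Kcne1*, *Kcne2* and *Kcne3*. They were chosen by name from the 25611 entries of the table of gene counts. All 9 were present and passed the filter on low counts, which left 16630 genes for testing.

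RNA from the thyroid of 16 mice was sequenced. The mice formed 4 groups of 4, wild type (WT) or *Glis3*-Pax8Cre, each on a normal diet (ND, NIH31) or a low iodine diet (LID, Harlan TD.95125). *Glis3*-Pax8Cre mice carried the alleles B6;129-Glis3<tm2Amj> and Pax8<tm1.1(cre)Mbu>, so that Cre made where *Pax8* is active removes exon 5 from *Glis3* in follicular cells. *Glis3* encodes a zinc finger transcription factor. The labels give the strain as C57BL/6 and the age as 1 month in all 4 groups. The mice were weaned at 3 weeks and, as the study states, were female and spent 6 days on their diet. No group of mice carrying Cre alone was included, so the Cre allele and the loss of *Glis3* exon 5 cannot be told apart.

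Iodide enters the follicular cell across its basolateral membrane through the sodium iodide symporter, which uses the sodium gradient that the sodium pump maintains. A potassium channel of KCNQ1 with a KCNE subunit lies in the same membrane and is needed for normal iodide uptake. Iodide leaves the cell across the apical membrane into the follicle, where it is coupled to thyroglobulin. When iodine in the diet is low, the pituitary releases more TSH, which acts on the follicular cell.

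Between 13892352 and 461077969 read pairs were counted on genes in each mouse, the lowest in *Glis3*-Pax8Cre(ND) replicate 1 and the highest in WT(ND) replicate 4. The medians were 71065230 and 50998308 for WT and *Glis3*-Pax8Cre mice on the ND, and 75869680 and 68127028 for WT and *Glis3*-Pax8Cre mice on the LID. Levels are in CPM, the usual unit of counts over library size, with library sizes scaled by TMM, the trimmed mean of M values. Values of 4 groups given in a row are in group order, with WT before *Glis3*-Pax8Cre on the ND and then likewise on the LID. Where a gene had no counts, its level could still be as high as 3 counts would give, from 0.00674 to 0.188 CPM in the different mice, counting error alone being covered.

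In 3 libraries some values stood apart from their group, on different grounds. The log2 CPM values of WT(ND) replicate 3 had a mean correlation of 0.974 with the other WT(ND) mice, against 0.982 to 0.984 for replicates 1, 2 and 4. Its mean correlation with the *Glis3*-Pax8Cre(ND) mice was 0.967, against 0.951 to 0.955 for the other WT(ND) mice. *Pax8* stood at 996 CPM in that library, while the highest of the other WT(ND) mice had 397 CPM and *Glis3*-Pax8Cre(ND) mice reached 989 CPM. In *Glis3*-Pax8Cre(ND) replicate 4, 5 thymocyte markers summed to 1783 CPM, and in no other library above 208 CPM. In *Glis3*-Pax8Cre(LID) replicate 1, 6 markers of airway epithelium summed to 279 CPM, and in no other library above 22.6 CPM. Of these 6 markers, 5 were called higher and 1 lower in *Glis3*-Pax8Cre(LID) against WT(LID) (2 to 6 called with each mouse left out in turn). Against *Glis3*-Pax8Cre(ND), 5 were called higher and 0 lower (2 to 5 called). The mean correlation with its own group was 0.941 for *Glis3*-Pax8Cre(ND) replicate 4, the lowest of that group. For *Glis3*-Pax8Cre(LID) replicate 1 it was 0.983, the highest of that group, so this library stood apart by the airway markers only. Skeletal muscle markers summed to 1245 CPM in *Glis3*-Pax8Cre(ND) replicate 1 and to 983 CPM in WT(LID) replicate 3, which were not set apart. The 3 libraries were kept, and several values that rest on them are given with and without them.

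Follicular markers were present in every mouse, with none of 9 at 0 and *Tg*, the thyroglobulin gene, the most abundant. *Tg* had means of 255610, 145550, 258500 and 106690 CPM in group order and was not level across the genotypes: on either diet every *Glis3*-Pax8Cre mouse was below every WT mouse, and it fell by 0.81 (SE 0.23) on the ND and by 1.28 (SE 0.23) on the LID, with adjusted p of 0.0239 and 0.000683 by edgeR with Benjamini-Hochberg adjustment. The *Tg* call on the ND was lost without WT(ND) replicate 1 (0.0772) or 4 (0.0731), without *Glis3*-Pax8Cre(ND) replicate 1 (0.0623), with only the 8 mice (0.0682) and in the replicate block with 8 mice (0.187), in edgeR adjusted p by Benjamini-Hochberg. The 9 follicular markers as a list did not follow *Tg*. In *Glis3*-Pax8Cre against WT mice, 5 were called higher and 2 lower on the LID (7 called with each mouse left out in turn). On the ND, 2 were called higher and 1 lower (2 to 5 called). The median log2 fold changes were 0.57 and 0.11. *Nkx2-1*, a transcription factor gene of the follicular lineage, had means of 386, 404, 344 and 406 CPM in group order, and *Foxe1*, another, had 142, 135, 139 and 125 CPM. *Pax8*, the gene whose control sequences drive Cre, had means of 538, 884, 320 and 836 CPM in the same order. The *Glis3* values in replicates 1 to 4 were 79.2, 85.8, 81.8 and 45.2 CPM for WT(ND), 105, 93.0, 101 and 85.8 CPM for *Glis3*-Pax8Cre(ND), 125, 174, 165 and 161 CPM for WT(LID), and 150.3, 119.5, 204 and 185 CPM for *Glis3*-Pax8Cre(LID). *Glis3* was not lower in *Glis3*-Pax8Cre mice by these counts. They cover the whole gene, and loss of exon 5 could not be read from them. *Xist* was counted in all 16 mice, and the chromosome Y genes *Ddx3y*, *Eif2s3y*, *Uty* and *Kdm5d* were at 0 in all.

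*Slc5a5* encodes the sodium iodide symporter, the entry step. It lies on chr8:70882889-70892757 of mm10, on the minus strand (Entrez 114479). Its values in replicates 1 to 4 were 182, 187, 81.8 and 132 CPM for WT(ND), 11.04, 8.43, 9.66 and 15.8 CPM for *Glis3*-Pax8Cre(ND), 1898, 2111, 2178 and 1927 CPM for WT(LID), and 15.0, 20.2, 16.01 and 15.8 CPM for *Glis3*-Pax8Cre(LID). Every WT mouse was above every *Glis3*-Pax8Cre mouse, and the WT(LID) mice were above all others. The group means ± SD (n = 4) were 146 ± 49.4, 11.2 ± 3.25, 2029 ± 137 and 16.7 ± 2.32 CPM in group order. Without WT(ND) replicate 3, the lowest of its group, the WT(ND) mean was 167 ± 30.5 CPM (n = 3). The tissue was sequenced in bulk, so fewer cells of a type and less RNA per cell cannot be told apart for this gene or any other described here.

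*Kcnq1* encodes the pore-forming subunit of the potassium channel. It lies on chr7:143107254-143427042, on the plus strand (Entrez 16535). Its values were 12.49, 11.4, 8.52 and 11.9 CPM for WT(ND), 7.09, 7.47, 7.95 and 4.75 CPM for *Glis3*-Pax8Cre(ND), 23.1, 21.7, 25.4 and 23.3 CPM for WT(LID), and 5.71, 10.4, 6.91 and 5.38 CPM for *Glis3*-Pax8Cre(LID). Each WT(LID) mouse was above every other mouse, and on either diet all WT mice were above all *Glis3*-Pax8Cre mice. The means ± SD (n = 4) in group order were 11.1 ± 1.76, 6.81 ± 1.42, 23.4 ± 1.53 and 7.10 ± 2.30 CPM. *Kcnq1* spans *Kcnq1ot1*, a long RNA read from the opposite strand, and reads were counted without regard to strand. The 2 genes share 121 exon bases in the annotation, and *Kcnq1ot1* had means of 8.98, 7.61, 7.73 and 6.84 CPM, with no call in any comparison. A further transcript on the opposite strand within *Kcnq1*, 4933417O13Rik, shares 0 exon bases with it.

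*Kcne1*, *Kcne2* and *Kcne3* encode small subunits that join KCNQ1 and change how it opens. KCNE1 slows the opening of the channel, as in heart and inner ear, and KCNE2 and KCNE3 hold it open over a wide range of voltage. KCNE2 is the subunit best known from the thyroid, where its loss impairs iodide uptake. *Kcne1* had 0.210, 0.455, 2.49 and 0.236 CPM for WT(ND), 13.7, 19.5, 22.7 and 17.4 CPM for *Glis3*-Pax8Cre(ND), 12.8, 11.4, 13.5 and 15.7 CPM for WT(LID), and 27.2, 27.3, 33.3 and 41.1 CPM for *Glis3*-Pax8Cre(LID). WT(ND) was the low group in every mouse, *Glis3*-Pax8Cre(LID) the high group in every mouse, and *Glis3*-Pax8Cre was above WT on either diet, the reverse of *Slc5a5* and *Kcnq1*. Its means ± SD (n = 4) were 0.847 ± 1.10, 18.3 ± 3.75, 13.3 ± 1.81 and 32.2 ± 6.59 CPM in group order. WT(ND) replicate 3 held most of the WT(ND) signal, and without it the WT(ND) mean was 0.300 ± 0.134 CPM (n = 3).

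*Kcne3* followed the diet in both genotypes, with 2.61, 2.64, 1.96 and 3.18 CPM for WT(ND), 1.94, 2.20, 2.38 and 2.12 CPM for *Glis3*-Pax8Cre(ND), 8.90, 7.26, 11.7 and 10.96 CPM for WT(LID), and 7.20, 6.46, 5.16 and 7.14 CPM for *Glis3*-Pax8Cre(LID). All 8 LID mice were above all 8 ND mice, and on the LID each WT mouse was above each *Glis3*-Pax8Cre mouse. Its means ± SD (n = 4) were 2.60 ± 0.497, 2.16 ± 0.180, 9.71 ± 2.02 and 6.49 ± 0.948 CPM. *Kcne2* was close to absent: its raw counts were 18, 12, 9 and 75 in WT(ND), 0, 21, 3 and 5 in *Glis3*-Pax8Cre(ND), 12, 6, 2 and 9 in WT(LID), and 13, 5, 4 and 8 in *Glis3*-Pax8Cre(LID), at most 0.252 CPM. *Kcne1* and *Kcne2* are neighbours, at chr16:92346001-92359468 and chr16:92292389-92298133 (Entrez 16509 and 246133), and *Kcne3* lies at chr7:100176670-100184869 (Entrez 57442).

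*Slc26a4* encodes pendrin, an anion exchanger of the apical membrane that passes iodide, and is mutated in Pendred syndrome. It lies on chr12:31519814-31559984, on the minus strand (Entrez 23985). Its values were 0.757, 0.484, 1.22 and 0.870 CPM for WT(ND), 0.439, 0.321, 0.469 and 0.196 CPM for *Glis3*-Pax8Cre(ND), 5.27, 7.42, 4.82 and 6.03 CPM for WT(LID), and 1.04, 1.04, 1.16 and 1.25 CPM for *Glis3*-Pax8Cre(LID). Its level was low, with raw counts from 7 to 517, but the WT(LID) mice stood clear of all others and each *Glis3*-Pax8Cre(ND) mouse was below each WT(ND) mouse. The means ± SD (n = 4) were 0.831 ± 0.303, 0.356 ± 0.124, 5.88 ± 1.14 and 1.12 ± 0.102 CPM.

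*Ano1* encodes a calcium-activated chloride channel, TMEM16A, that also conducts iodide and lies in the apical membrane. It spans chr7:144588549-144738592, on the minus strand (Entrez 101772). It had 22.0, 21.3, 11.6 and 44.7 CPM for WT(ND), 13.7, 16.8, 13.0 and 13.7 CPM for *Glis3*-Pax8Cre(ND), 51.6, 64.2, 69.9 and 77.7 CPM for WT(LID), and 19.3, 21.2, 24.8 and 25.3 CPM for *Glis3*-Pax8Cre(LID). The WT(LID) mice were again the high group, and WT(ND) spread widely, with replicate 4 near the WT(LID) range and replicate 3 below every *Glis3*-Pax8Cre(ND) mouse. The means ± SD (n = 4) were 24.9 ± 14.0, 14.3 ± 1.69, 65.8 ± 11.0 and 22.7 ± 2.89 CPM.

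*Slc26a7* encodes another anion transporter of the pendrin family, whose loss causes hypothyroidism with goitre. It lies on chr4:14505197-14621778, on the minus strand (Entrez 208890), and had 709, 702, 570.4 and 629 CPM for WT(ND), 541, 664, 676 and 509 CPM for *Glis3*-Pax8Cre(ND), 758, 814, 731 and 814 CPM for WT(LID), and 720.1, 302, 662 and 677 CPM for *Glis3*-Pax8Cre(LID). Apart from *Glis3*-Pax8Cre(LID) replicate 2, all mice lay between 509 and 814 CPM, and each WT(LID) mouse was above every other mouse by a small margin. The means ± SD (n = 4) were 653 ± 65.7, 598 ± 85.0, 779 ± 42.0 and 590.3 ± 194 CPM. *Slc5a8* encodes a sodium-coupled monocarboxylate transporter, once proposed as an apical iodide transporter, and lies on chr10:88885992-88929515 (Entrez 216225). Its values were 80.4, 68.3, 18.2 and 94.7 CPM for WT(ND), 28.5, 30.3, 32.5 and 25.8 CPM for *Glis3*-Pax8Cre(ND), 90.3, 95.7, 84.7 and 86.3 CPM for WT(LID), and 69.7, 51.0, 68.2 and 62.0 CPM for *Glis3*-Pax8Cre(LID). The *Glis3*-Pax8Cre(ND) mice were the low group, joined by WT(ND) replicate 3, the lowest of all 16. The means ± SD (n = 4) were 65.4 ± 33.2, 29.3 ± 2.86, 89.3 ± 4.93 and 62.7 ± 8.48 CPM, and without replicate 3 the WT(ND) mean was 81.1 ± 13.2 CPM (n = 3).

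**Figure D1:**
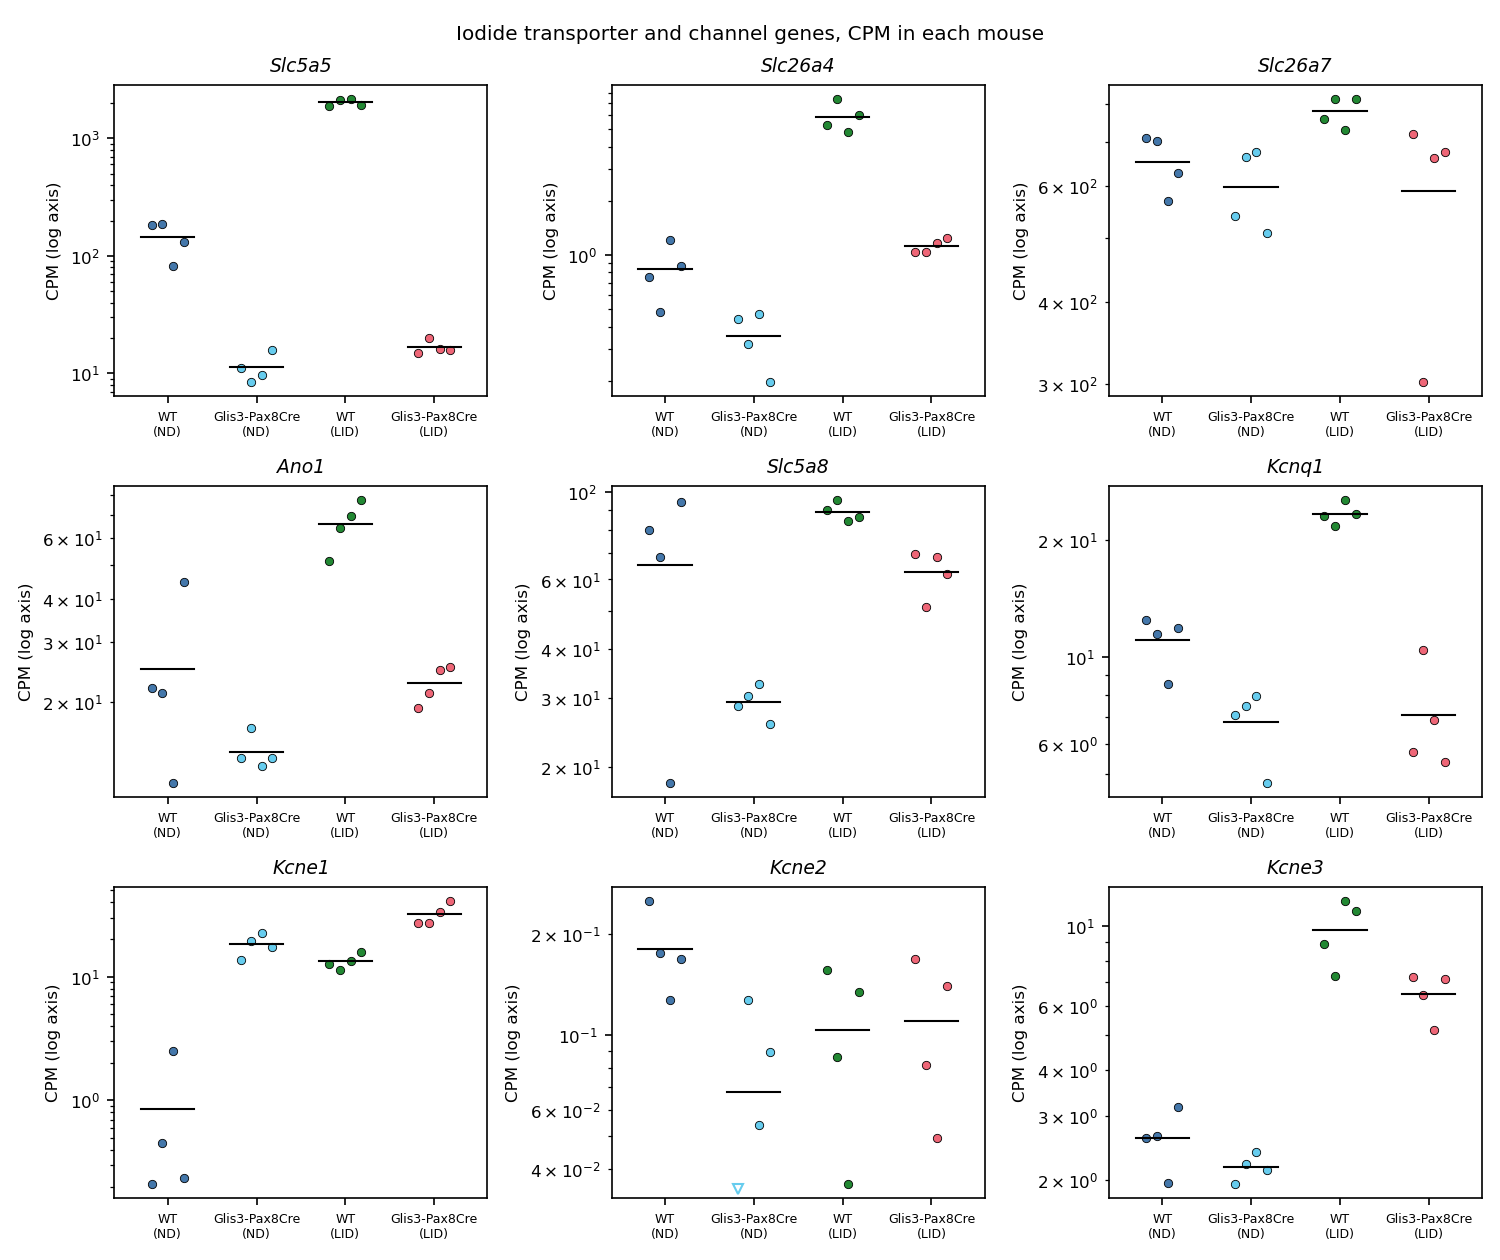
CPM (log axes) of the 9 genes in each mouse, 1 point per mouse and 1 column per group, with bars at the group means and an open triangle for the mouse at 0 counts. WT(LID) is the high group for *Slc5a5*, *Slc26a4*, *Ano1* and *Kcnq1*, and narrowly for *Slc26a7* and *Kcne3*. WT(ND) is the low group for *Kcne1*, where replicate 3 has 2.49 CPM.

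Promoter sequences from RefSeq (GRCm38.p6), 250 bases before to 50 bases after the start, were found for 6 of the 9 genes, and none was held for *Slc26a7*, *Kcnq1* and *Kcne1*. They were searched on both strands for TGGGGGG (reverse complement CCCCCCA), a G-rich heptamer of the kind that zinc finger proteins of the GLI and GLIS families bind, for TGACGTCA, the palindromic cyclic AMP response element, and for TATAAA (reverse complement TTTATA), the TATA box. Among all 32851 promoters of that length, 8.47% held TGGGGGG, 1.79% held TGACGTCA and 13.6% held TATAAA. The promoters of 3 genes with a transport step in iodide entry or exit that rose on the LID in WT mice are printed, each read from the minus strand, with motif matches in capitals. They lie at chr8:70892708-70893007 for *Slc5a5*, chr12:31559935-31560234 for *Slc26a4* and chr7:144738524-144738823 for *Ano1*.
Slc5a5: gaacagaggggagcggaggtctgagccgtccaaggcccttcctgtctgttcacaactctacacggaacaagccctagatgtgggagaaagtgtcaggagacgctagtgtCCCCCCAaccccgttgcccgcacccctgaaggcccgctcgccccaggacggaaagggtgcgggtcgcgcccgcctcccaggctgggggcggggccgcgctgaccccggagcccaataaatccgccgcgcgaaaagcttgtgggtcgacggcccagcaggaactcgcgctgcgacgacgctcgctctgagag
Slc26a4: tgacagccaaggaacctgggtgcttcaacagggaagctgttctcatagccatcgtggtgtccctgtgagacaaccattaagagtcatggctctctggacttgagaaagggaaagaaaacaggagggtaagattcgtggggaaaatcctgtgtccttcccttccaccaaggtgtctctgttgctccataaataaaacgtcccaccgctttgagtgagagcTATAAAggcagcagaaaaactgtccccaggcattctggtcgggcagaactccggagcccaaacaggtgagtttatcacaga
Ano1: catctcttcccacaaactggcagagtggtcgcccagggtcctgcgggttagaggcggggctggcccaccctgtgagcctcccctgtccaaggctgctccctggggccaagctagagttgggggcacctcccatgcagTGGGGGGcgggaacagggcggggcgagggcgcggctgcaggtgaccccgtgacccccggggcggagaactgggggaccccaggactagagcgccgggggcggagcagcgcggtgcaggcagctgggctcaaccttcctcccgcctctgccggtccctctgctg
The *Slc5a5* window holds CCCCCCA, the reverse complement, 141 bases before the start, the *Slc26a4* window holds TATAAA 31 bases before the start, and the *Ano1* window holds TGGGGGG 113 bases before the start. TGACGTCA was in none of the windows of the 6 genes, and the *Slc5a8*, *Kcne2* and *Kcne3* windows held none of the 3 motifs. A match is a description of letters and was not tested as a binding site.

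Levels of different genes were compared per kilobase (kb) of exon, with exon lengths from 1695 bases for *Kcne3* to 5331 bases for *Slc5a8*. In WT(ND) the order of mean levels was *Slc26a7* at 126, *Slc5a5* at 49.8, *Slc5a8* at 12.3, *Ano1* at 5.44, *Kcnq1* at 3.66, *Kcne3* at 1.53, *Slc26a4* at 0.270, *Kcne1* at 0.267 and *Kcne2* at 0.102 CPM per kb. *Slc5a8* and *Ano1*, *Slc5a8* and *Kcnq1*, *Ano1* and *Kcnq1*, *Slc26a4* and *Kcne1*, and *Kcne1* and *Kcne2* overlapped over the 4 mice. In WT(LID), *Slc5a5* led at 693 CPM per kb, ahead of *Slc26a7* at 151, *Slc5a8* at 16.7, *Ano1* at 14.4, *Kcnq1* at 7.72, *Kcne3* at 5.73, *Kcne1* at 4.20, *Slc26a4* at 1.91 and *Kcne2* at 0.0585 CPM per kb. *Slc5a8* and *Ano1* overlapped there, as did *Kcne3* and *Kcne1*.

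In the *Glis3*-Pax8Cre groups *Slc26a7* led on both diets. In *Glis3*-Pax8Cre(ND) it stood at 116 CPM per kb, ahead of *Kcne1* at 5.77, *Slc5a8* at 5.50, *Slc5a5* at 3.84, *Ano1* at 3.12, *Kcnq1* at 2.25, *Kcne3* at 1.28, *Slc26a4* at 0.116 and *Kcne2* at 0.0383 CPM per kb. *Kcne1* and *Slc5a8*, *Kcne1* and *Slc5a5*, *Slc5a8* and *Slc5a5*, *Slc5a5* and *Ano1*, and *Slc26a4* and *Kcne2* overlapped. In *Glis3*-Pax8Cre(LID), *Slc26a7* stood at 114, *Slc5a8* at 11.8, *Kcne1* at 10.2, *Slc5a5* at 5.72, *Ano1* at 4.95, *Kcne3* at 3.83, *Kcnq1* at 2.35, *Slc26a4* at 0.365 and *Kcne2* at 0.0622 CPM per kb. *Slc5a8* and *Kcne1* overlapped in *Glis3*-Pax8Cre(LID), and so did *Slc5a5* and *Ano1*, *Ano1* and *Kcne3*, and *Kcne3* and *Kcnq1*. *Slc5a5* thus had rank 1 in WT(LID), rank 2 in WT(ND) and rank 4 in both *Glis3*-Pax8Cre groups. Per kb of coding sequence the order differed: *Kcne3*, with 309 coding bases, was placed higher in every group, *Kcne1*, with 387, in every group but *Glis3*-Pax8Cre(ND), where it kept rank 2, and *Slc5a5* had rank 5 in both *Glis3*-Pax8Cre groups and the same ranks as before in WT.

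**Figure D2:**
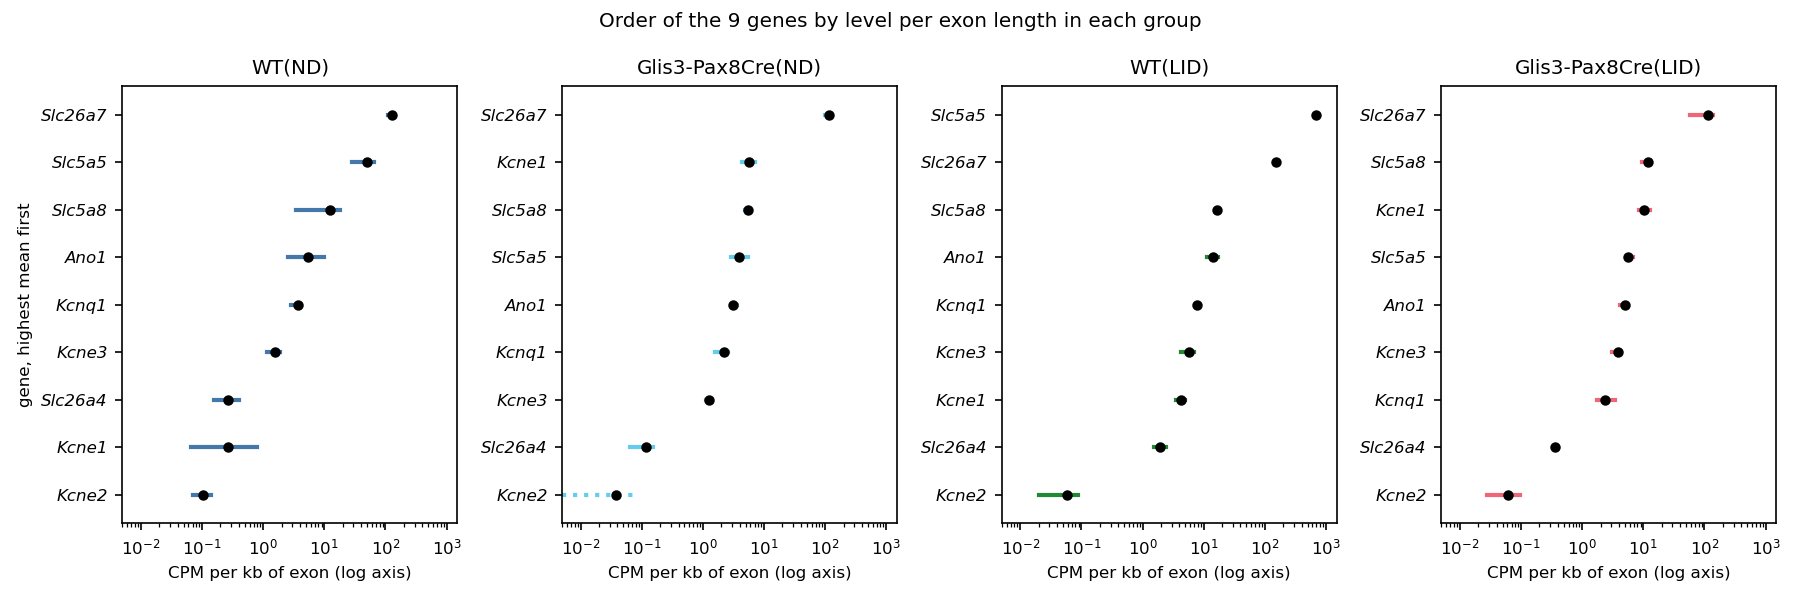
Levels of the 9 genes in each group in CPM per kb of exon (log axis), highest mean first, with a dot at the mean of 4 mice and a line over their range, dotted where the lowest mouse is at 0. *Slc5a5* leads in WT(LID) at 693 CPM per kb, and *Slc26a7* leads in the other 3 groups.

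The comparison of WT(LID) with WT(ND) asks how the 9 genes respond to the diet in normal thyroid. The gene of the entry step, *Kcnq1*, *Kcne1* and *Kcne3* of the potassium channel, and the genes of apical exit through pendrin and ANO1 were higher on the LID. *Kcne2* and the abundant *Slc26a7* and *Slc5a8* were not called. Differences are log2 fold changes with a standard error (SE) from edgeR's quasi-likelihood test, and a gene is called at an adjusted p under 0.05 after Benjamini-Hochberg adjustment over the 16630 genes. In all, 6 of the 9 genes were called higher and 0 lower, where 20.9% of all genes tested were called higher and 20.8% lower. The median log2 fold change was 1.40 over the 9 genes and -0.03 over all genes tested.

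*Slc5a5* rose by a log2 fold change of 3.80 (SE 0.25), 13.9-fold, with an adjusted p of 3.80e-08 in edgeR's quasi-likelihood test after Benjamini-Hochberg adjustment, and was higher in 4 of 4 mice. *Kcne1* rose by 4.03 (SE 0.64), 16.4-fold, with an adjusted p of 0.000205 by the same edgeR test with Benjamini-Hochberg adjustment. Its size rested on WT(ND) replicate 3: without that mouse the log2 fold change was 5.54. *Slc26a4* rose by 2.82 (SE 0.28), 7.06-fold, and *Kcne3* by 1.90 (SE 0.18), 3.73-fold, with adjusted p of 1.62e-06 and 1.02e-06 in the edgeR test with Benjamini-Hochberg adjustment. *Ano1* rose by 1.40 (SE 0.29) and *Kcnq1* by 1.08 (SE 0.20), 2.63-fold and 2.11-fold. For each of these 6 genes the 4 WT(LID) mice were above the 4 WT(ND) mice. The share of all genes tested whose groups do not overlap is not given, so absence of overlap cannot be set against it, here or in the other comparisons. *Slc26a7* differed by 0.26 with a 95% interval from -0.17 to 0.68, although its groups did not overlap. *Slc26a7* was called with only the 8 mice and in the replicate block with 8 mice, with adjusted p of 0.0356 and 0.0394 by edgeR with Benjamini-Hochberg adjustment. *Slc5a8* differed by 0.45, from -0.25 to 1.14, or by 0.146 without WT(ND) replicate 3, and *Kcne2* by -0.77, from -1.80 to 0.27, with overlapping mice.

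The comparison of *Glis3*-Pax8Cre(LID) with WT(LID) asks which of the 9 genes differ between the genotypes on the low iodine diet. The entry step, both called apical exit genes and the pore-forming subunit were lower in *Glis3*-Pax8Cre mice. *Kcne3* was lower by a smaller step, and *Kcne1* stood on the other side, higher in every *Glis3*-Pax8Cre mouse. Among the 9 genes, 5 were called lower and 0 higher, where 15.4% of all genes tested were called lower and 14.9% higher. The median log2 fold change was -0.58 over the 9 genes and 0.01 over all genes tested.

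*Slc5a5* fell by 6.92 (SE 0.29) on the log2 scale, 121-fold, with an adjusted p of 7.78e-10 in edgeR's quasi-likelihood test after Benjamini-Hochberg adjustment. *Slc26a4* fell by 2.39 (SE 0.27), 5.24-fold, and *Kcnq1* fell by 1.72 (SE 0.20), 3.29-fold, with adjusted p of 1.13e-05 and 1.56e-05 in the same edgeR test with Benjamini-Hochberg adjustment. *Ano1* fell by 1.54 (SE 0.29), 2.91-fold. In each of these 4 genes all 4 *Glis3*-Pax8Cre(LID) mice were below all 4 WT(LID) mice, and each was called under every alternative that gave it a value. *Kcne3* fell by 0.58 (SE 0.17), 1.496-fold, with an adjusted p of 0.0182 by edgeR with Benjamini-Hochberg adjustment. The *Kcne3* call did not hold without WT(LID) replicate 3 (0.0675), WT(LID) replicate 4 (0.0580) or, in the other group, *Glis3*-Pax8Cre(LID) replicate 3 (0.0580), and with library size alone (0.0742), adjusted p from edgeR with Benjamini-Hochberg adjustment. Over the alternatives it ranged from 0.00522 with DESeq2 to 0.0742 with edgeR, both with Benjamini-Hochberg adjustment.

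*Kcne1* differed by 1.27 between *Glis3*-Pax8Cre(LID) and WT(LID), with a 95% interval from 0.08 to 2.47, and was not called, although the groups did not overlap. With only the 8 mice of these groups in the fit it was called, with an adjusted p of 0.000148 by edgeR with Benjamini-Hochberg adjustment, and over the alternatives the value ranged from 0.000108 to 0.203. The spread shared by the 16 mice includes that of *Kcne1* in WT(ND), where replicate 3 stood apart. *Slc5a8* differed by -0.51, from -1.20 to 0.19, and *Slc26a7* by -0.40, from -0.83 to 0.02, both without overlap between the groups. Without *Glis3*-Pax8Cre(LID) replicate 2, its lowest mouse, the *Slc26a7* difference was -0.18. *Slc5a8* was also called with only the 8 mice, at an adjusted p of 0.00360 by edgeR with Benjamini-Hochberg adjustment, in a range from 0.00164 to 0.435 over the alternatives. The lower end of that range came from the fit without the 3 libraries that stood apart, a choice made after seeing the data. *Kcne2* differed by 0.05, from -1.05 to 1.16.

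The comparison of *Glis3*-Pax8Cre(ND) with WT(ND) asks the same on the normal diet. *Slc5a5* was again the member with the deepest fall, while *Kcne1*, barely counted in WT mice, was the only member called higher. Of the 9 genes, 1 was called higher and 4 lower, where 10.3% of all genes tested were called higher and 9.25% lower. The median log2 fold change was -0.80 over the 9 genes and 0.02 over all genes tested.

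*Slc5a5* fell by 3.70 (SE 0.25), 13.0-fold, and *Kcne1* rose by 4.50 (SE 0.65), 22.6-fold, with adjusted p of 6.48e-07 and 0.000474 in edgeR's quasi-likelihood test after Benjamini-Hochberg adjustment. Without WT(ND) replicate 3 the *Kcne1* log2 fold change was 6.00. *Slc26a4* fell by 1.26 (SE 0.29), with an adjusted p of 0.00678 by edgeR with Benjamini-Hochberg adjustment, and lost its call with only the 8 mice (0.0637) and in the replicate block with 8 mice (0.0922). All 4 *Glis3*-Pax8Cre(ND) mice were on 1 side of all 4 WT(ND) mice for these 3 genes. *Kcnq1* fell by 0.70 (SE 0.20) without overlap between the groups, with an adjusted p of 0.0235 by edgeR with Benjamini-Hochberg adjustment. The *Kcnq1* call was lost without WT(ND) replicate 1 (0.0703), 2 (0.0549) or 4 (0.0645) or without *Glis3*-Pax8Cre(ND) replicate 4 (0.0569), or in the replicate block with 8 mice (0.108), in edgeR adjusted p by Benjamini-Hochberg, and with DESeq2 it was 0.00655 after Benjamini-Hochberg adjustment. The 4 fits without 1 mouse each called 3 of the 9 genes in place of 5, with 2153, 2196, 2053 and 3254 genes called over all genes.

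*Slc5a8* fell by 1.16 (SE 0.33), with an adjusted p of 0.0251 by edgeR with Benjamini-Hochberg adjustment, and its groups overlapped through WT(ND) replicate 3 alone. Without that mouse it fell by 1.45, with an adjusted p of 1.51e-06 by the same edgeR test with Benjamini-Hochberg adjustment. The *Slc5a8* call was lost without WT(ND) replicate 1 (0.0730), 2 (0.0565) or 4 (0.0899) or without *Glis3*-Pax8Cre(ND) replicate 4 (0.0591), with only the 8 mice (0.127) and in the replicate blocks with 16 (0.0617) and 8 mice (0.340), and the edgeR adjusted p by Benjamini-Hochberg ranged from 1.51e-06 to 0.340 over the alternatives. *Ano1* differed by -0.80, with a 95% interval from -1.42 to -0.19, and was not called. Without WT(ND) replicate 4, the highest of its group, the *Ano1* difference was -0.34 and not called. Without WT(ND) replicate 3 *Ano1* was called at -1.02, with an adjusted p of 0.00445 by edgeR with Benjamini-Hochberg adjustment, in a range from 0.00445 to 0.277 over the alternatives, and DESeq2 with Benjamini-Hochberg adjustment called it at 0.0245. *Slc26a7* differed by -0.13, from -0.55 to 0.30, *Kcne3* by -0.26, from -0.63 to 0.11, and *Kcne2* by -1.07, from -2.15 to 0.01.

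Setting *Glis3*-Pax8Cre(LID) against *Glis3*-Pax8Cre(ND) asks what remains of the response to the diet without *Glis3* function. Both pendrin and KCNE3 transcripts still rose, while *Kcnq1* gave values on the same level on both diets. *Slc5a8*, which was not called between the diets in WT mice, was called higher here. Of the 9 genes, 3 were called higher and 0 lower, where 13.1% of all genes tested were called higher and 12.3% lower. The median log2 fold change was 0.66 over the 9 genes and -0.03 over all genes tested. *Kcne3* rose by 1.58 (SE 0.18), 2.99-fold, and *Slc26a4* by 1.69 (SE 0.29), 3.23-fold, with adjusted p of 2.27e-05 and 0.000681 in edgeR's quasi-likelihood test after Benjamini-Hochberg adjustment, both without overlap between the groups. *Slc5a8* rose by 1.10 (SE 0.33), 2.14-fold, with an adjusted p of 0.0255 by edgeR with Benjamini-Hochberg adjustment and without overlap. The *Slc5a8* call was lost without *Glis3*-Pax8Cre(ND) replicate 1 (0.0512), 2 (0.0526) or 4 (0.0571) or without *Glis3*-Pax8Cre(LID) replicate 1 (0.0525) or 3 (0.0576), in edgeR adjusted p by Benjamini-Hochberg that ranged from 7.01e-05 to 0.0576 over the alternatives. The lower end came from the fit without the 3 libraries that stood apart, a choice made after seeing the data.

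*Slc5a5* in *Glis3*-Pax8Cre mice differed by 0.58 between the diets, with a 95% interval from 0.08 to 1.07, and was not called, with overlap through *Glis3*-Pax8Cre(ND) replicate 4, the highest of its group at 15.8 CPM. Without *Glis3*-Pax8Cre(ND) replicate 4 it was called at 0.80, with an adjusted p of 0.0173 by edgeR with Benjamini-Hochberg adjustment, and over the alternatives the adjusted p ranged from 0.00114 to 0.204. DESeq2 with Benjamini-Hochberg adjustment called it at an adjusted p of 0.0469. The lower end of the range came from leaving out the 3 libraries that stood apart, which was chosen after seeing the data. *Kcnq1* differed by 0.06, from -0.37 to 0.49, and *Slc26a7* by -0.02, from -0.44 to 0.41. *Ano1* differed by 0.66 and *Kcne1* by 0.81, with 95% intervals from 0.04 to 1.28 and from -0.37 to 1.99, both without overlap. Mice of these 2 groups that share a replicate number had correlated deviations from their group means over genes (r of 0.212, 0.292, 0.634 and 0.648), so the number was also fitted as a block. In the replicate block with 16 mice neither *Ano1* nor *Kcne1* was called (0.0887 and 0.248), and with only the 8 *Glis3*-Pax8Cre mice both were called without the block (0.00987 and 0.0182), adjusted p by edgeR with Benjamini-Hochberg adjustment. In the replicate block with the 8 *Glis3*-Pax8Cre mice, *Ano1* was called at 0.66 and *Kcne1* at 0.81, with adjusted p of 0.0168 and 0.0108 by edgeR with Benjamini-Hochberg adjustment, and 5 of the 9 genes were called, with 2893 of 15944 over all genes. Over the alternatives the adjusted p ranged from 0.00987 to 0.193 for *Ano1* and from 0.0108 to 0.450 for *Kcne1*. *Kcne2* differed by 0.36, from -0.79 to 1.499.

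**Figure D3:**
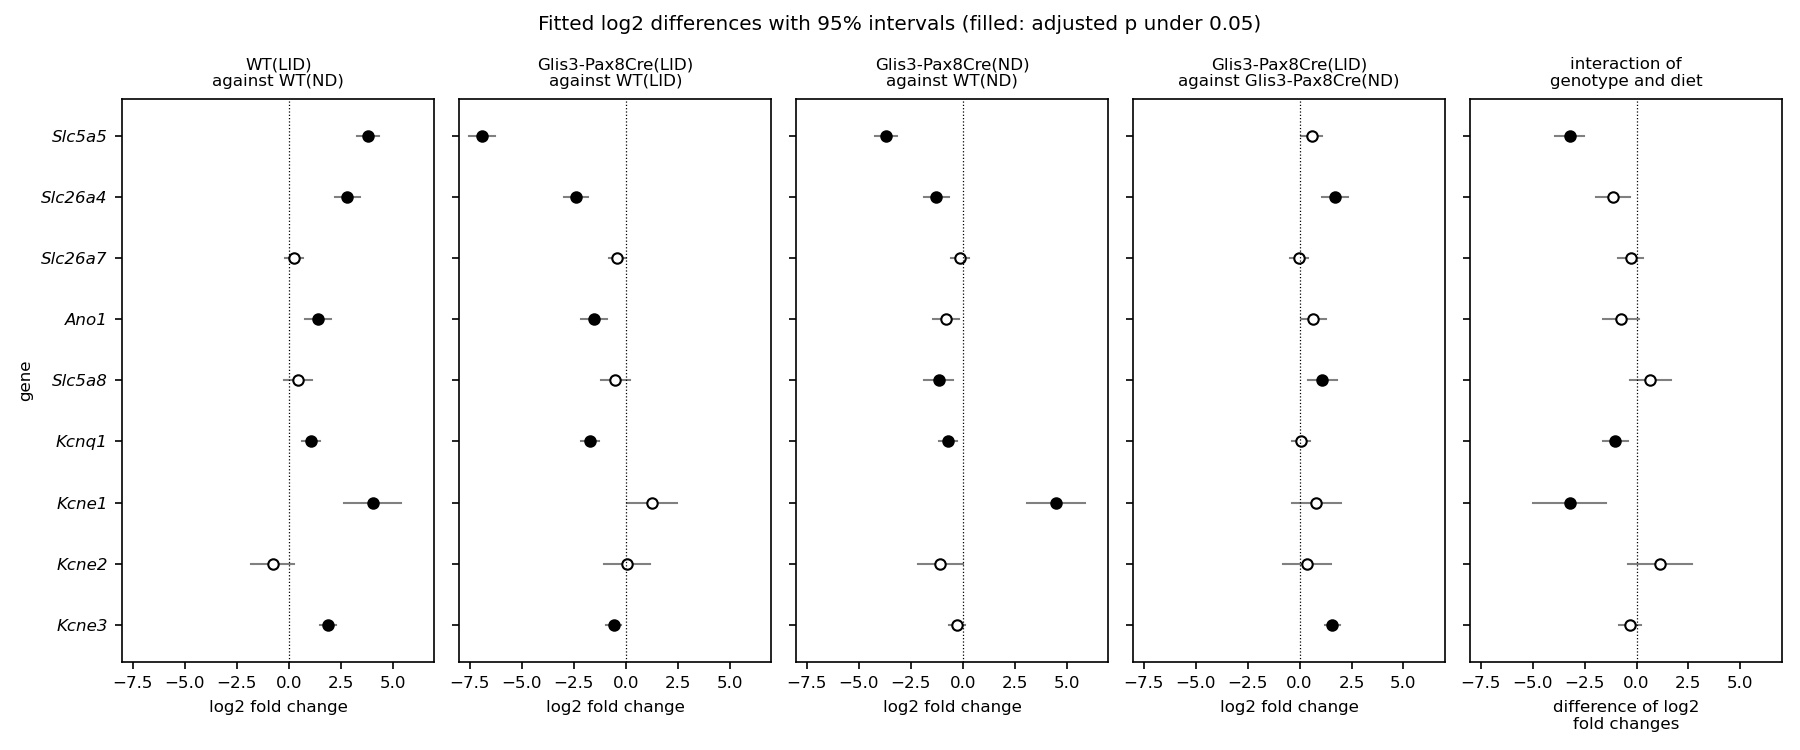
Log2 fold changes of the 9 genes in the 4 comparisons and, in the last panel, the interaction of genotype and diet, with 95% intervals as lines and filled points at an adjusted p under 0.05 (edgeR, Benjamini-Hochberg). *Slc5a5* lies at -6.92 in *Glis3*-Pax8Cre(LID) against WT(LID), and *Kcne1* lies to the right of 0 in all 4 comparisons.

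The interaction of genotype and diet tests whether the log2 response to the LID differed between *Glis3*-Pax8Cre and WT mice. A negative value means a smaller rise in *Glis3*-Pax8Cre mice. Of the 9 genes, 3 were called lower and 0 higher, where 7.41% of all genes tested were called lower and 4.43% higher. The median was -0.74 over the 9 genes and -0.01 over all genes tested. For *Slc5a5* the difference in response was -3.22 (SE 0.33), with an adjusted p of 1.86e-05 in edgeR's quasi-likelihood test after Benjamini-Hochberg adjustment. For *Kcne1* it was also -3.22 (SE 0.81), with an adjusted p of 0.0197 by edgeR with Benjamini-Hochberg adjustment, and without WT(ND) replicate 3 it was -4.74. The 2 genes reached that value from opposite starting points, since *Slc5a5* stayed low in *Glis3*-Pax8Cre mice on both diets and *Kcne1* was already high in *Glis3*-Pax8Cre mice on the ND.

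For *Kcnq1* the difference in response was -1.02 (SE 0.28), with an adjusted p of 0.0285 by edgeR with Benjamini-Hochberg adjustment. The *Kcnq1* call did not hold without *Glis3*-Pax8Cre(ND) replicate 2 (0.0551) or 3 (0.0561), WT(LID) replicate 3 (0.0533) or 4 (0.0521), or *Glis3*-Pax8Cre(LID) replicate 1 (0.0603) or 4 (0.0573), in edgeR adjusted p by Benjamini-Hochberg that ranged from 0.00309 to 0.0603 over the alternatives. *Slc26a4* differed by -1.13, with a 95% interval from -1.95 to -0.30, and was not called. *Slc26a4* was called by DESeq2 (adjusted p 0.0274, Benjamini-Hochberg), and by edgeR without WT(ND) replicate 3 (-1.38) or without *Glis3*-Pax8Cre(ND) replicate 4 (-1.34), and *Slc5a8* was called without WT(ND) replicate 3 at 0.94, against 0.65 with it. Their adjusted p by edgeR with Benjamini-Hochberg adjustment ranged over the alternatives from 0.00886 to 0.156 and from 0.00196 to 0.639. For *Slc26a4* the lower end came from leaving out the 3 libraries that stood apart, which was chosen after seeing the data. *Ano1* differed by -0.74, from -1.60 to 0.13, and was called without WT(ND) replicate 4 at -1.20, with edgeR adjusted p by Benjamini-Hochberg from 0.0110 to 0.439 over the alternatives. Without WT(ND) replicate 3, 5 of the 9 genes were called, with 1903 of 16849 over all genes. *Kcne3* differed by -0.32, from -0.84 to 0.20, *Slc26a7* by -0.27, from -0.87 to 0.33, and *Kcne2* by 1.12, from -0.42 to 2.67. Over the alternatives the *Slc26a7* difference in response ranged from -0.41 to -0.06.

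KCNE subunits share KCNQ1 as their partner, so their transcripts were also set against *Kcnq1* in each mouse, as ratios of CPM per kb of exon. The ratio of *Kcne1* to *Kcnq1* was 0.0161, 0.0379, 0.279 and 0.0189 for WT(ND), 1.85, 2.48, 2.72 and 3.50 for *Glis3*-Pax8Cre(ND), 0.527, 0.501, 0.507 and 0.644 for WT(LID), and 4.54, 2.499, 4.61 and 7.30 for *Glis3*-Pax8Cre(LID). *Kcne1* was thus below *Kcnq1* per kb of exon in all 8 WT mice and above it in all 8 *Glis3*-Pax8Cre mice. The side of 1 depends on the length used: per kb of coding sequence the WT(LID) means were 34.5 for *Kcne1* and 11.7 for *Kcnq1*, in CPM per kb, so *Kcne1* was above *Kcnq1* there as well. The ratio of *Kcne3* to *Kcnq1* had means of 0.419, 0.588, 0.738 and 1.77 in group order, and in *Glis3*-Pax8Cre(LID) it ranged from 1.11 to 2.37. Each mouse of *Glis3*-Pax8Cre(LID) was above every mouse of the other groups in that ratio. *Kcne2*, the subunit best known from the thyroid, had the lowest mean per kb of the channel genes in every group. In WT(ND) that order against *Kcne1* rests on replicate 3, without which the means were 0.0946 CPM per kb for *Kcne1* and 0.113 CPM per kb for *Kcne2*. Ratios of transcripts do not give the make-up of the channel protein, and no test was made on them.

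**Figure D4:**
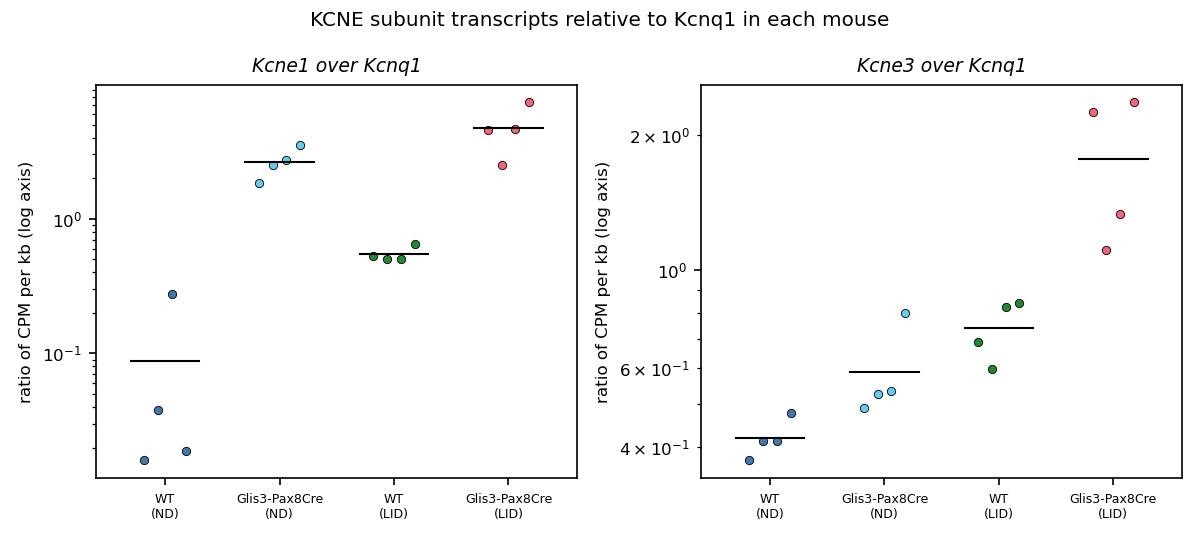
Ratio of *Kcne1* and of *Kcne3* to *Kcnq1* in CPM per kb of exon (log axis), 1 point per mouse in 4 groups, with bars at the group means. *Kcne1* to *Kcnq1* lies between 0.0161 and 0.644 in WT mice and between 1.85 and 7.30 in *Glis3*-Pax8Cre mice.

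Summed markers of vessels and stroma were highest in WT(LID), as were *Ano1* and *Kcnq1*. *Ano1* and *Kcnq1* are known in smooth muscle and other cells besides follicular cells. The 5 endothelial markers, of which *Kdr* was the most abundant and none was at 0, summed to 488 to 620 CPM in WT(ND), 634 to 889 CPM in *Glis3*-Pax8Cre(ND), 1316 to 1488 CPM in WT(LID) and 591 to 754 CPM in *Glis3*-Pax8Cre(LID). In WT(LID) against WT(ND), 5 of 5 were called higher, and in *Glis3*-Pax8Cre(LID) against WT(LID) 4 of 5 were called lower. The 4 smooth muscle markers, led by *Acta2* and none at 0, summed to 71.0 to 113 CPM, 71.4 to 189 CPM, 212 to 306 CPM and 67.8 to 114 CPM in the same order, with 2 of 4 called higher and 3 of 4 called lower in those comparisons. The 5 fibroblast markers, led by *Col1a2* and none at 0, summed to 536 to 742 CPM, 249 to 507 CPM, 1062 to 1240.5 CPM and 366 to 659 CPM, with 2 called higher and 2 lower, and then 2 called lower, so single fibroblast markers split where their sum was higher. In *Glis3*-Pax8Cre(ND) against WT(ND), 2 of 5 endothelial markers were called higher and 0 lower (1 to 3 called with each mouse left out in turn), and 2 of 5 fibroblast markers were called lower and 0 higher (0 to 4 called), so that *Kcnq1*, which fell, moved with the second list and against the first. Of the 4 smooth muscle markers, 0 were called in that comparison (0 in each such fit), with a median log2 fold change of -0.19. The part of these cell types in the values of *Ano1*, *Kcnq1* and *Kcne3* was not tested. Among follicular markers, *Cdh16*, a cadherin gene of follicular epithelium, was also highest in WT(LID), with means of 629, 639, 1644 and 540.4 CPM, while *Pax8* was lowest there. Of the 9 follicular markers, 4 were called higher and 1 lower in WT(LID) against WT(ND) (3 to 5 called with each mouse left out in turn). In *Glis3*-Pax8Cre(LID) against WT(LID), 5 were called higher and 2 lower, so most called follicular markers went the other way from *Cdh16* there.

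**Figure D5:**
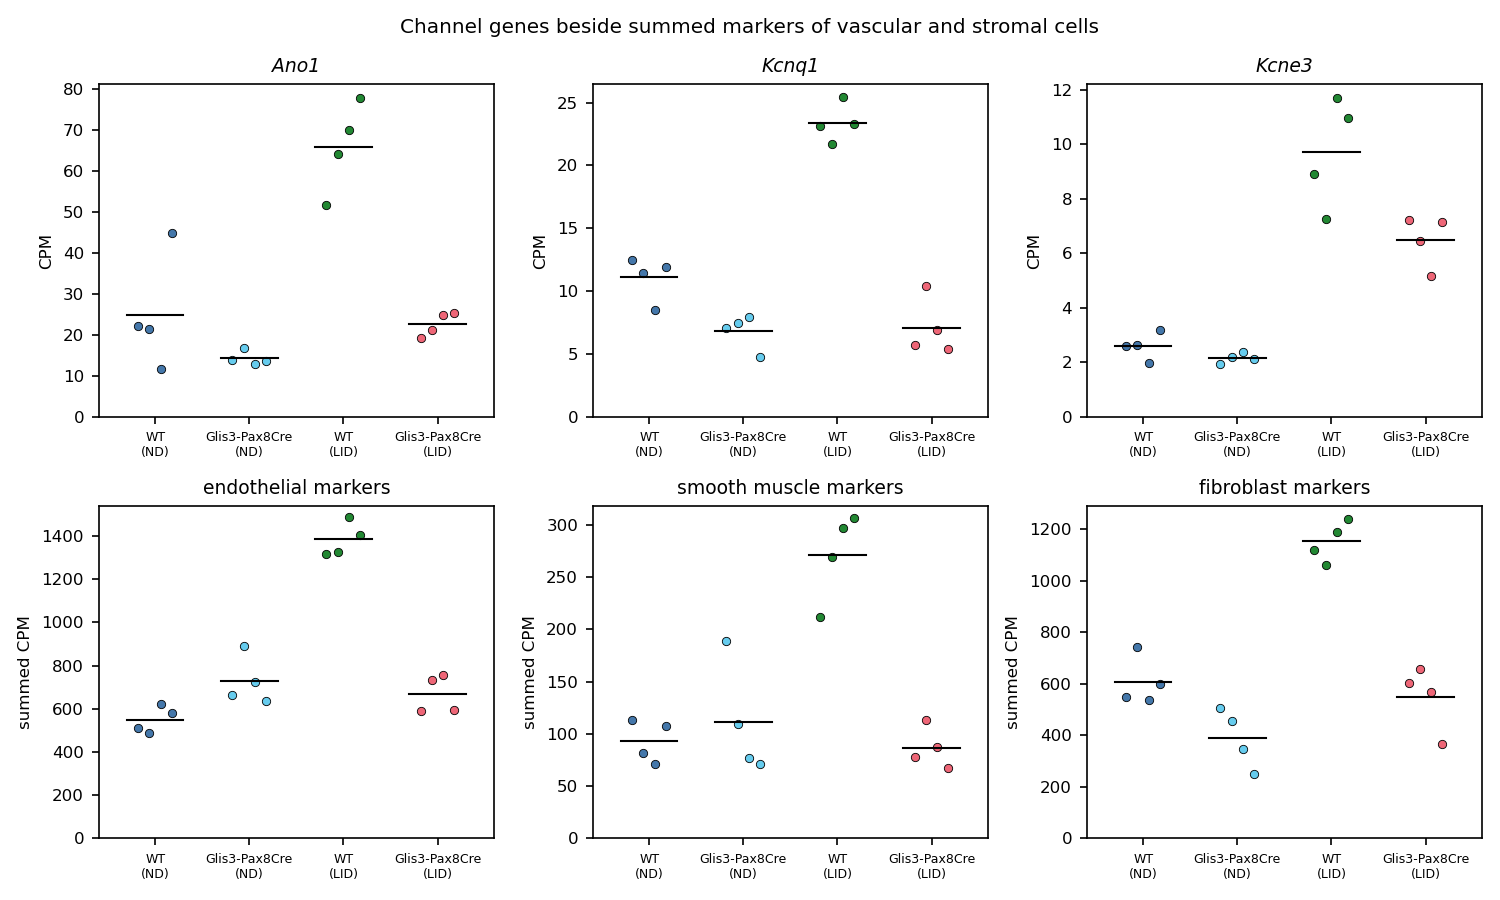
CPM of *Ano1*, *Kcnq1* and *Kcne3* (top) and summed CPM of endothelial, smooth muscle and fibroblast markers (bottom) in each mouse, 1 point per mouse, with bars at the group means and linear axes from 0. WT(LID) is the high group in all 6 panels, with endothelial sums from 1316 to 1488 CPM.

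Other cell types of the neck were counted as well. C cell markers, led by *Chga*, summed to 7420 to 9722 CPM in WT(ND), 3519 to 5980.1 CPM in *Glis3*-Pax8Cre(ND), 2513 to 3879 CPM in WT(LID) and 1495 to 3426 CPM in *Glis3*-Pax8Cre(LID). Parathyroid markers, led by *Pth*, summed to 3477 to 6005 CPM, 3289 to 5179.9 CPM, 858 to 1676 CPM and 225 to 2099 CPM in that order. No parathyroid marker was at 0 in any mouse, and 1 C cell marker was at 0 in *Glis3*-Pax8Cre(ND) replicate 1. For both sums each WT(ND) mouse was above each WT(LID) mouse, the reverse of *Slc5a5*. Single C cell markers split, with 1 of 4 called higher and 2 lower in WT(LID) against WT(ND), while 3 of 3 parathyroid markers were called lower (3 and 2 to 3 called with each mouse left out in turn). Adipocyte markers, led by *Ucp1*, summed to 321 to 831 CPM in WT(ND) and 135 to 213 CPM in WT(LID), and to 156 to 349 CPM in *Glis3*-Pax8Cre(ND) and 145 to 342 CPM in *Glis3*-Pax8Cre(LID). Macrophage markers, led by *Csf1r*, summed to 105 to 154 CPM in WT(ND), 170 to 206 CPM in *Glis3*-Pax8Cre(ND), 114 to 126 CPM in WT(LID) and 117 to 157 CPM in *Glis3*-Pax8Cre(LID). In *Glis3*-Pax8Cre(ND) against WT(ND), 4 of 4 macrophage markers were called higher (3 to 4 called with each mouse left out in turn) and 2 of 4 adipocyte markers lower (0 to 2 called). In WT(LID) against WT(ND), 3 of 4 adipocyte markers were called lower (3 called in each such fit). In the interaction of genotype and diet, 3 of 4 adipocyte markers were called higher (2 to 4 called). Skeletal muscle markers, led by *Acta1*, ranged from 1.55 to 1245 CPM and squamous markers, led by *Krt5*, from 0.373 to 80.8 CPM over the 16 mice, with no group apart. The part of these cells in the values of the 9 genes was not tested.

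Related genes were counted from fixed lists, with the range of the count when each mouse was left out in turn. Of 5 other SLC5 genes tested, 2 were called higher and 2 lower in WT(LID) against WT(ND) (4 called in each such fit), and 1 and 1 in *Glis3*-Pax8Cre(LID) against WT(LID) (2 in each). The median log2 fold changes were -0.11 and 0.19. *Slc5a9*, a sodium-coupled sugar transporter gene of the same family as *Slc5a5*, had means of 17.0, 5.42, 96.1 and 11.8 CPM, rose by 2.497 in WT(LID) against WT(ND) and fell by 3.03 in *Glis3*-Pax8Cre(LID) against WT(LID). Of 9 other SLC26 genes, 2 were called higher and 2 lower in the first comparison (3 to 4 called), and 4 and 2 in the second (4 to 5 called), with medians of -0.12 and 0.04. *Slc26a10* had means of 275, 481, 966 and 633 CPM, and rose by 1.81 and fell by 0.61 in the 2 comparisons, the same directions as *Slc26a4*. In *Glis3*-Pax8Cre(ND) against WT(ND), however, *Slc26a10* was called higher, with a log2 fold change of 0.81, where *Slc26a4* had -1.26. That *Slc26a10* call was lost in the replicate block with 8 mice. *Slc26a9* was called in the reverse directions to *Slc26a4*, with log2 fold changes of -1.22 and 2.10 in the 2 comparisons.

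Of 9 other anoctamins, 1 was called higher and 4 lower in WT(LID) against WT(ND) (3 to 5 called), and 1 and 2 in *Glis3*-Pax8Cre(LID) against WT(LID) (3 to 5 called), with medians of -0.29 and -0.38. Of 6 other KCNQ and KCNE genes, 2 were called higher and 1 lower in the first comparison (3 to 4 called), and 0 and 3 in the second (2 to 3 called), with medians of 0.45 and -0.92. *Kcne4* had means of 2.02, 2.24, 4.19 and 1.70 CPM, rose by 1.05 and fell by 1.30, in the directions of *Kcnq1*. Of 19 other chloride channel and transporter genes, 7 were called higher and 2 lower in the first (7 to 9 called), and 0 and 6 in the second (3 to 5 called), with medians of 0.21 and -0.19. *Lrrc8c*, a subunit gene of the volume-regulated anion channel, had means of 12.6, 16.9, 36.4 and 14.8 CPM, with a rise of 1.53 and a fall of 1.30.

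The sodium pump maintains the gradient that SLC5A5 uses. Of 13 of its genes, 5 were called higher and 2 lower in WT(LID) against WT(ND) (7 called in each fit without 1 mouse), and 1 and 4 in *Glis3*-Pax8Cre(LID) against WT(LID) (5 in each), with medians of 0.04 and 0.03. *Fxyd5*, a regulator gene of the pump, had means of 20.2, 27.5, 58.6 and 25.4 CPM, rose by 1.54 and fell by 1.21. Of 11 genes of hormone synthesis and the TSH receptor, 6 were called higher and 3 lower in the first comparison (8 to 9 called), and 2 and 5 in the second (7 called), with medians of 0.55 and -0.26. *Tshr*, the receptor gene, had means of 105, 248, 304 and 629.5 CPM. It was higher in *Glis3*-Pax8Cre than in WT mice on each diet, opposite to *Slc5a5* and the same way as *Kcne1*.

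The genes whose pattern over the 16 mice was closest to each member were found among 11668 genes by the root mean square difference of centred log2 CPM. The values were centred but not scaled, so the difference also depends on how large a gene's changes are. A gene with large changes can lie far from genes of like direction with smaller ones. For *Slc5a5* the closest were *Slc2a6* at 1.43, *Dnase1l2* at 1.46 and *Slc5a9* at 1.59, farther than the closest genes of any other member. *Slc2a6* had means of 14.0, 1.63, 27.8 and 1.48 CPM. For *Kcne1* they were *Slc6a4* at 0.67, *Dapl1* at 0.94 and *Ryr3* at 0.98. *Slc6a4* had means of 2.09, 16.5, 14.0 and 28.9 CPM, and in WT(ND) replicate 3 it had 6.03 CPM, the highest of that group, as did *Ryr3* at 11.6 CPM and *Kcne1* itself.

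The other members had closer partners. For *Slc26a4* the closest was *Sod3* at 0.37, with means of 158, 100.3, 1899.5 and 286 CPM. For *Kcnq1* they were *Pdzrn3* at 0.19, *Ehd2* at 0.19 and *Adam15* at 0.20, with *Adam15* means of 88.9, 70.0, 248 and 65.2 CPM. For *Ano1* they were *Armc2* at 0.33, *Akap12* at 0.33 and *Col18a1* at 0.35, and for *Kcne3* they were *Lamb1*, *Maff* and *Lbp*, each at 0.31. *Col18a1* and *Lamb1* encode basement membrane proteins. For *Slc5a8* they were *Sh3tc2* at 0.25, *Chrdl1* at 0.30 and *Palld* at 0.31, and for *Slc26a7*, which moved little, *Tulp4* at 0.16, *Zbtb38* at 0.17 and *Eea1* at 0.18. For *Kcne2*, near the limit of counting, they were *Frem2*, *Plppr3* and 2900005J15Rik, from 0.64 to 0.67. Among the members themselves the closest pair was *Ano1* and *Kcnq1* at 0.49 and the farthest *Kcne1* and *Slc5a5* at 4.36.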

How the data were processed

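Pairs of reads whose mean base quality was at most 20 were dropped by the authors. By the submitters' processing notes, they mapped them with STAR 2.5 to mm10 and counted them with featureCounts 1.5.0-p1 as unstranded fragments on RefSeq genes. The deposited gene counts are whole numbers and were used as they are. In R 4.3.3 with edgeR 4.0.16, filterByExpr on the 4 groups kept 16630 genes, libraries were scaled by TMM, and levels are CPM of the scaled library size. All 16 mice were fitted at once with 1 mean per group and no covariate by edgeR's robust quasi-likelihood method, with Benjamini-Hochberg adjustment. The 9 members, the lists of related genes and the marker lists were chosen with earlier results of these data known. The genes named are the members, *Glis3*, follicular markers, up to 3 of the closest genes to each member, genes that overlap a member and, from each list, at most 4 called genes per comparison with a mean of at least 1 CPM and the largest changes. A few were then shown in full, after their values were seen. Closest genes needed a mean of at least 5 CPM, and log2 CPM a prior count of 2. Equal replicate numbers were checked as pairs, which held between the *Glis3*-Pax8Cre groups only. Alternatives were DESeq2 1.42.0, RLE, library size alone, omitting *Tg*, testing 21310 genes with no filter or the 14265 genes with 10 counts or more in each mouse, only the 8 mice compared, a replicate block, an adjusted p under 0.01 with a fold change over 2, and each mouse left out. Leaving out the 3 libraries that stood apart was chosen after seeing the data, and that fit is included in the ranges over the alternatives.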

Additional observations from a re-analysis of the deposited data

Results flagged for a closer look

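In 36 sets of 4 mice, 1 for each gene and group, the highest and the lowest mouse were tested by their gap to the next, and 2 stood apart. *Slc26a7* had 302.3 CPM in *Glis3*-Pax8Cre(LID) replicate 2, below the other 3 mice of its group. *Kcne1* had 2.49 CPM in WT(ND) replicate 3, above the other 3. Chance marks about 1 in 20 such groups.

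The response to the LID differed between genotypes for 3 of the 9 genes by edgeR's test of the interaction. Over all genes tested, 7.41% were called lower and 4.43% higher. The difference in log2 fold change was -3.22 for *Slc5a5*, -1.02 for *Kcnq1* and -3.22 for *Kcne1*. The *Kcnq1* call was lost in 6 of the alternatives. The causes were not tested.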

How the results depend on the processing

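For single genes, 782 values under the alternatives kept their direction and their side of the threshold, 29 lost a call, 26 gained one and 11 changed sign. Those 11 belong to differences close to 0 that were not called. For *Glis3*-Pax8Cre(LID) against *Glis3*-Pax8Cre(ND), *Kcnq1* was -0.064 with library size alone, -0.09 without *Glis3*-Pax8Cre(ND) replicate 4 and -0.18 without *Glis3*-Pax8Cre(LID) replicate 2, in a range from -0.18 to 0.17 with each mouse left out. In the same comparison *Slc26a7* was 0.04 and 0.05 without *Glis3*-Pax8Cre(ND) replicates 2 and 3 and 0.20 without *Glis3*-Pax8Cre(LID) replicate 2, in a range from -0.13 to 0.20. For *Glis3*-Pax8Cre(LID) against WT(LID), *Kcne2* was -0.03 and -0.21 without WT(LID) replicates 2 and 3, -0.25 and -0.07 without *Glis3*-Pax8Cre(LID) replicates 1 and 4, and -0.27 without the 3 libraries that stood apart, with a range from -0.25 to 0.32 when 1 mouse was left out. The causes were not tested.

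The number of the 9 genes called ranged, with each mouse left out in turn, from 6 to 6 for WT(LID) against WT(ND), from 4 to 5 for *Glis3*-Pax8Cre(LID) against WT(LID), from 3 to 6 for *Glis3*-Pax8Cre(ND) against WT(ND), from 2 to 3 for *Glis3*-Pax8Cre(LID) against *Glis3*-Pax8Cre(ND) and from 2 to 5 for the interaction. The genes called among all tested ranged from 5943 to 6426, 4030 to 4609, 2053 to 3662, 3299 to 4768 and 1476 to 2228 in the same fits. For *Glis3*-Pax8Cre(ND) against WT(ND) it was 3 with only the 8 mice compared, where 1653 of 16175 genes tested were called in place of 3252 of 16630, and 3 at an adjusted p under 0.01 with a fold change over 2. No count over all genes is given at that stricter threshold, so member counts there cannot be set against it. For *Glis3*-Pax8Cre(LID) against *Glis3*-Pax8Cre(ND) it was 5 with only the 8 mice, where 2374 of 15944 genes were called in place of 4223 of 16630, and 5 without the 3 libraries, where it was 4865 of 16700. For the interaction it was 5 without the 3 libraries, where 2147 of 16700 genes were called in place of 1969 of 16630. It was 1 at the stricter threshold, which calls fewer genes by construction and for which no count over all genes is given. In the replicate block with 16 mice the counts were 6, 5, 4, 3 and 3 in the order above, among 6812, 4875, 3012, 4038 and 1871 of 16630 genes called. In the replicate block with 8 mice they were 7, 7, 2 and 5 for the 4 comparisons, among 7374 of 16156, 4927 of 16063, 969 of 16175 and 2893 of 15944 genes called, so the 2 on the ND went with fewer calls over all genes. The other causes were not tested.

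With library size alone in place of TMM, the median of all genes moved from -0.03 to -0.18, from 0.01 to 0.16, from 0.02 to 0.14 and from -0.03 to -0.17 in the 4 comparisons, and was 0.01 for the interaction. *Slc26a4* had no value with at least 10 counts in every mouse, and *Kcne2* had none there or in some fits of 8 mice. Counts of called genes in the lists stayed within 1.5 times in 1610 cases and moved further in 214.

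Limits: there were 4 mice per group and no Cre-only group. The instrument of each library is not stated. Whole-gene counts of *Glis3* do not separate exon 5, and counts without strand do not separate *Kcnq1* from *Kcnq1ot1* where they overlap. Counts as low as those of *Kcne2* and *Slc26a4* limit what can be detected, and depth differed widely between libraries. Bulk tissue does not separate follicular cells from vessels, C cells and parathyroid. Transcript levels were measured, not protein or iodide flux.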
